A study of Mus musculus with 4 samples.

Results

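The miR-143 and miR-145 cluster was described in mouse liver from 4 of the 1907 mature miRNAs that small RNA sequencing counted: both arms of the miR-143 hairpin (mmu-miR-143-3p and mmu-miR-143-5p in the files) and both arms of the miR-145a hairpin (mmu-miR-145a-5p and mmu-miR-145a-3p). The rule names these 4 rows and uses no measured value, although the locus was picked with earlier results of these data known. All 4 passed the filter on low counts. The libraries came from livers of C57BL/6 mice aged 15 weeks. In 2 libraries (TAA 1 and TAA 2) the mice had received thioacetamide (TAA), a hepatotoxin that injures hepatocytes around the central veins and is used to produce liver fibrosis, as 3 intraperitoneal injections of 200 mg/kg in each week over 10 weeks. The other 2 (control 1 and control 2) are labelled only as control, and the sources used here name no vehicle. The design text calls the libraries biological replicates without naming animals, so the p-values measure the spread between these libraries, which may be technical in part.

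miR-143 and miR-145 are transcribed from 1 locus and are best known from smooth muscle, where serum response factor and myocardin drive them. There they repress transcription factors such as Klf4, Klf5 and Elk1 and so favour the contractile over the proliferative state. In liver they are expected in vessel walls, portal fibroblasts, pericytes and contractile stellate cells rather than in hepatocytes, although a whole-liver library does not separate these cells. In most tissues the 3p arm of miR-143 and the 5p arm of miR-145 are the guide strands, which are loaded into Argonaute.

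The hairpins are neighbours on the minus strand of chromosome 18 (GRCm38, the assembly called mm10). Mir143 lies at 61649196 to 61649258 and Mir145a at 61647825 to 61647894, so that miR-143 is the upstream hairpin and 1301 bases separate the pair. In the GENCODE annotation neither hairpin overlaps another gene. The long non-coding RNA gene Carmn, on the same strand, ends at 61649625, just upstream of Mir143, and the gene Bvht on the opposite strand ends at 61647472. In the RefSeq table of the same assembly, Carmn runs on to 61645878 and so spans both hairpins. The similarly named miR-145b comes from a separate hairpin of chromosome 18, at 69022199 to 69022273.

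The libraries held 43836911 and 48878003 miRNA counts in TAA-treated liver and 42609845 and 46224018 in the controls. Levels are given as raw counts or as CPM, for which library sizes were corrected by TMM factors that align the libraries on the bulk of their miRNAs. miR-192-5p, listed here as a hepatocyte miRNA, was the most abundant miRNA of every library. miR-122-5p, listed likewise, ranked 13th in TAA 1 and TAA 2, 12th in control 1 and 11th in control 2. Whether these ranks identify the labelled tissue was not tested. TAA 2 stood apart in the 5 erythroid miRNAs, whose summed level was 2627 CPM there and 731 CPM in TAA 1, against 445 CPM in control 1 and 274 CPM in control 2. It also had the largest share of reads outside annotated miRNAs, 26.4%, against 24.3% in TAA 1, 23.9% in control 1 and 22.8% in control 2.

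miR-143-3p, the guide strand of miR-143, was one of the most abundant miRNAs of the liver and ranked 9th in each of the 4 libraries. It had 1353236 counts in TAA 1 and 1125062 in TAA 2, against 1112373 in control 1 and 1150968 in control 2. As a share of miRNA counts this was 3.09% and 2.30% in TAA-treated liver and 2.61% and 2.49% in the controls, with 95% Wilson intervals that reached at most from 3.08% to 3.09% for the largest share and cover counting error only. The TAA libraries therefore lay on either side of both controls. Scaled to CPM, miR-143-3p measured 29773 and 21931 CPM in TAA-treated liver and 26276 and 26924 CPM in the controls. The TAA mean was 25852 ± 5545 CPM and the control mean 26600 ± 458 CPM (SD, n = 2 each).

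miR-145a was far less abundant, and its arms were present at like levels. miR-145a-5p, its guide strand in most tissues, had 8953 and 8501 counts in TAA-treated liver and 12986 and 7486 counts in the controls. Control 1 alone was high, and control 2 was the lowest of the 4 by count. In CPM the values were 197 and 166 in TAA-treated liver against 307 and 175 in the controls, so that control 2 lay between the TAA libraries. miR-145a-3p had 9813 and 7415 counts in TAA-treated liver and 10206 and 9773 in the controls. In CPM it measured 216 and 144.5 in TAA-treated liver against 241 and 229 in the controls, and it was the one member whose groups did not overlap. That separation was common, being seen in 55.3% of the 644 miRNAs tested.

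miR-143-5p, the passenger strand of miR-143, was the least abundant member. It had 344 and 356 counts in TAA-treated liver and 328 and 320 in the controls, where counting error alone is 5.30% to 5.59% of a value. In CPM it measured 7.57 and 6.94 in TAA-treated liver against 7.75 and 7.49 in the controls, and the groups overlapped. The order of the members was the same at the top and bottom of every library, with miR-143-3p first and miR-143-5p last. miR-145a-5p and miR-145a-3p were not separable, since miR-145a-5p was the higher of the pair in TAA 2 and control 1 and the lower in TAA 1 and control 2. miR-145b, from the separate hairpin, had 14 and 9 counts in TAA-treated liver and 15 and 14 in the controls, and its log2 fold change of -0.50 had a 95% interval of -1.73 to 0.72 (edgeR adjusted p = 0.640).

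**Figure D1:**
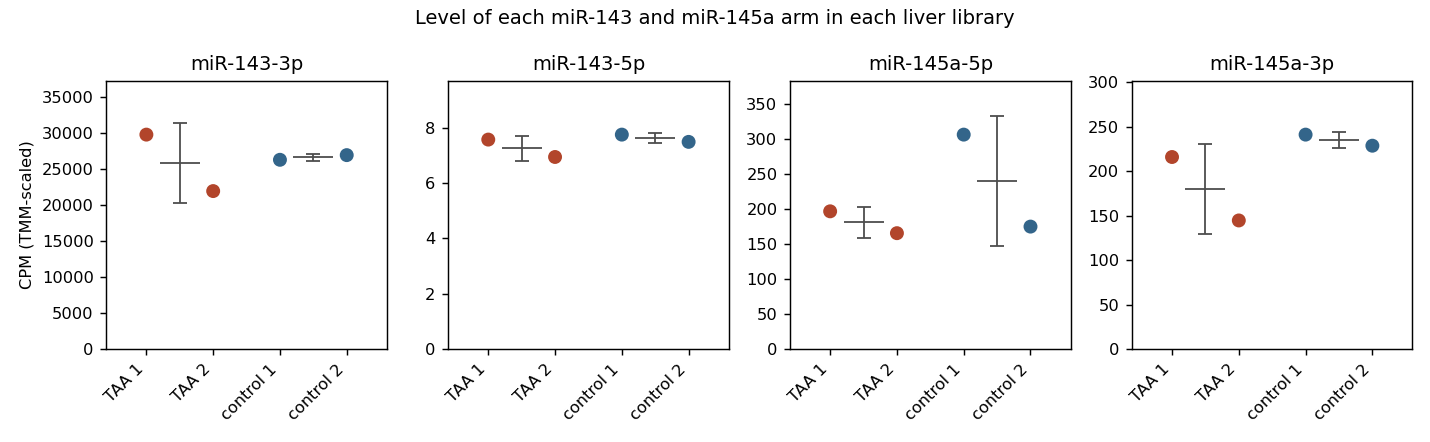
Level in CPM (linear axes from 0) of the 4 arms in each library, TAA in red and control in blue, with the group mean and SD (n = 2) between the points. miR-143-3p is split between the TAA libraries, at 29773 and 21931 CPM, and miR-145a-5p between the controls, at 307 and 175 CPM.

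The comparison of TAA-treated with control liver asks whether the cluster changes with the treatment. None of the 4 members passed edgeR's quasi-likelihood test at a Benjamini-Hochberg adjusted p of 0.05, which 107 of 644 miRNAs, or 16.6%, passed. The calls were 90 higher in TAA-treated liver, or 14% of those tested, and 17 lower, or 2.64%. For miR-143-3p the log2 fold change was -0.04 (SE 0.14, edgeR adjusted p = 0.906). Its 95% interval ran from -0.37 to 0.29, or 0.774-fold to 1.22-fold, so that changes smaller than these bounds were not resolved. For miR-143-5p the log2 fold change was -0.07 (SE 0.19, edgeR adjusted p = 0.886), with an interval of 0.708-fold to 1.28-fold.

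The miR-145a arms had lower means in TAA-treated liver and wider intervals. For miR-145a-5p, at 181 ± 22.1 CPM in TAA-treated liver and 241 ± 93.1 CPM in the controls (SD, n = 2 each), the log2 fold change was -0.41 (SE 0.25, edgeR adjusted p = 0.364), with an interval of 0.507-fold to 1.12-fold. For miR-145a-3p, at 180 ± 50.5 CPM in TAA-treated liver and 235 ± 8.82 CPM in the controls, it was -0.38 (SE 0.19, edgeR adjusted p = 0.269), with an interval of 0.563-fold to 1.05-fold. A fall of miR-145a by over 1.5 times therefore lies inside both intervals and these libraries do not resolve it. With the arms of each hairpin summed and all hairpins refitted, the log2 fold change was -0.39 (SE 0.21, edgeR adjusted p = 0.332) for miR-145a and -0.03 (SE 0.15, adjusted p = 0.910) for miR-143.

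A single library decided the value of miR-145a-5p. Its log2 fold change was -0.77 without control 2 and 0.031 without control 1. A fit that leaves out a library takes the spread of the lone library from the other group. miR-145a-3p turned on TAA 2 instead, with a log2 fold change of -0.12 without TAA 2 (adjusted p = 0.761) and of -0.70 without TAA 1 (adjusted p = 0.107). For miR-143-3p the value was 0.17 without TAA 2 (adjusted p = 0.589) and -0.28 without TAA 1 (adjusted p = 0.372). TAA 2 is the library with the high erythroid miRNAs, and the part of these in the members' values was not tested. The scaling also set the sign for miR-143, which was -0.21 for miR-143-3p with upper-quartile factors and 0.079 with library size alone, settings that moved the median of all miRNAs to -0.17 and 0.12.

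**Figure D2:**
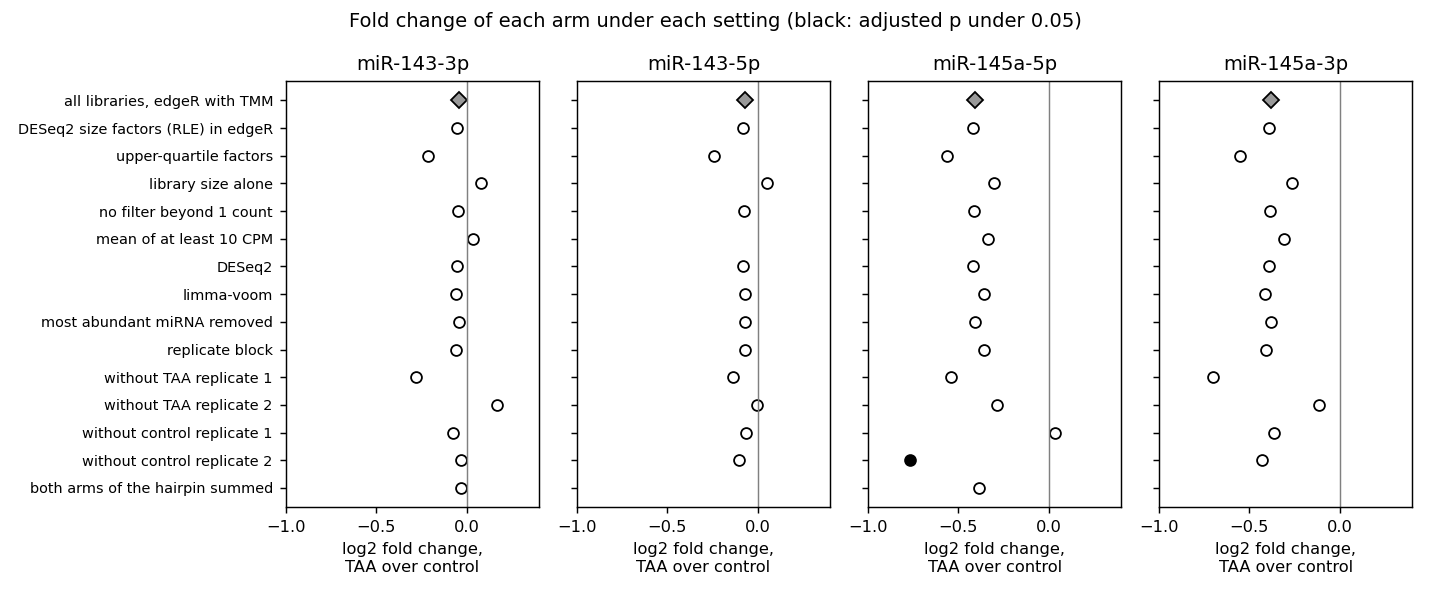
Log2 fold change, TAA over control, of each arm with all libraries (grey diamond) and under each other setting (circles; black where the adjusted p was under 0.05). miR-145a-5p without control 2, at -0.77, is the one black point, from a fit with a single control. miR-143-3p lies on both sides of 0.

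The spread between libraries of a group was itself unlike among the members. TAA 1 was 1.36-fold higher than TAA 2 in miR-143-3p, a difference larger than that of 90.1% of the 273 miRNAs with a mean of at least 10 CPM. For miR-145a-3p TAA 1 was 1.49-fold higher than TAA 2, larger than in 94.9% of them. The controls differed little in both, by factors of 0.976 and 1.05 for control 1 over control 2. miR-145a-5p had the opposite distribution of spread, with control 1 at 1.75-fold the level of control 2, a difference larger than in 97.1% of the 273, and TAA 1 at 1.19-fold the level of TAA 2. The median absolute log2 difference between replicates over those miRNAs was 0.13 in TAA-treated liver and 0.14 in the controls. Counting error of miR-145a-5p was 0.878% to 1.16% of a value, while the controls differed 1.75-fold.

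**Figure D3:**
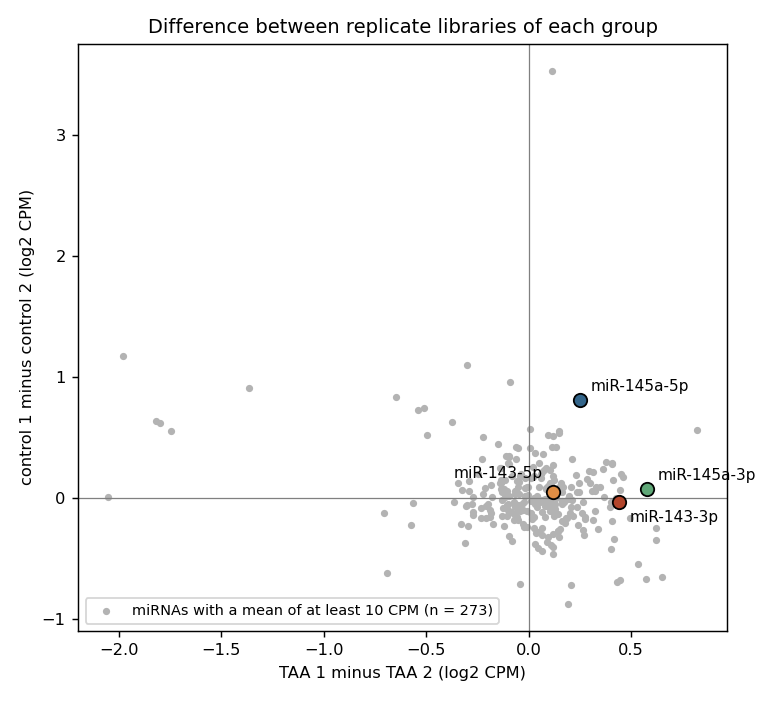
Difference in log2 CPM between the 2 TAA libraries (horizontal) and between the 2 controls (vertical) for each arm and, in grey, for the 273 miRNAs with a mean of at least 10 CPM. miR-143-3p and miR-145a-3p differ mainly between the TAA libraries, and miR-145a-5p differs mainly between the controls, 1.75-fold.

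The arms of miR-143 were counted very unequally, and those of miR-145a about equally. For each read of miR-143-5p there were 3934 reads of miR-143-3p in TAA 1 and 3160 in TAA 2, against 3391 in control 1 and 3597 in control 2. The 5p arm thus took 0.0254% and 0.0316% of miR-143 reads in TAA-treated liver and 0.0295% and 0.0278% in the controls. By mean log2 ratio this was the 3rd most unequal of the 150 hairpins whose arms each averaged 20 counts or more, and miR-145a was the most balanced of the 150. The 5p arm took 47.7% and 53.4% of miR-145a reads in TAA-treated liver and 56.0% and 43.4% in the controls. Reads of different miRNAs ligate to adapters with unlike efficiency, so these are ratios of read counts and not of molecules.

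The arm ratio differed between the groups by less than its spread within them. The log2 of the 5p over 3p ratio, TAA minus control, differed by -0.01 for miR-143 (95% interval -0.51 to 0.49, limma adjusted p = 0.985). For miR-145a the difference was 0.05 (95% interval -0.69 to 0.80, limma adjusted p = 0.985). No hairpin of the 150 passed limma's test of arm ratios (0%), while 5 had an unadjusted p under 0.05. The libraries of a group differed more for miR-145a than for most hairpins, with a residual SD of 0.40 on the log2 scale against a median of 0.18. The 5p over 3p count ratio of miR-145a was 0.912 and 1.15 in TAA-treated liver and 1.27 and 0.766 in the controls, so that both controls lay outside the range of the TAA libraries, on opposite sides.

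Although the hairpins are neighbours, reads of miR-143 outnumbered those of miR-145a many times over. There were 151 and 132 reads of miR-143-3p for each read of miR-145a-5p in TAA-treated liver, and 85.7 and 154 in the controls. By this ratio control 1 was low and the other 3 libraries lay close together. miR-145a-5p was used as the more abundant arm by mean count, although the arms had like means (211 CPM, and 208 CPM for miR-145a-3p). The ratio to miR-145a-3p was not tested. With both arms of each hairpin the ratio was 72.1 and 70.7 in TAA-treated liver and 48.0 and 66.7 in the controls, so that here the groups did not overlap, as in 41.8% of the 55 pairs measured this way. The log2 difference of that ratio was 0.34 (limma adjusted p = 0.639). miR-143 took 98.6% of the reads of the locus in both TAA libraries, against 98.0% in control 1 and 98.5% in control 2. The log2 ratio of miR-143-3p to miR-145a-5p was higher by 0.30 in TAA-treated liver (95% interval -0.70 to 1.30, limma adjusted p = 0.887). The test ran over 53 pairs of adjacent hairpins on 1 strand within 10 kb, of which 1, or 1.89%, passed, namely miR-494 and miR-679, named here after its value was seen. Without control 2 the difference was 0.72 (limma adjusted p = 0.00943) and without control 1 it was -0.12 (adjusted p = 0.789). With 3 libraries, the lone library of a group is assumed to vary like those of the other.

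**Figure D4:**
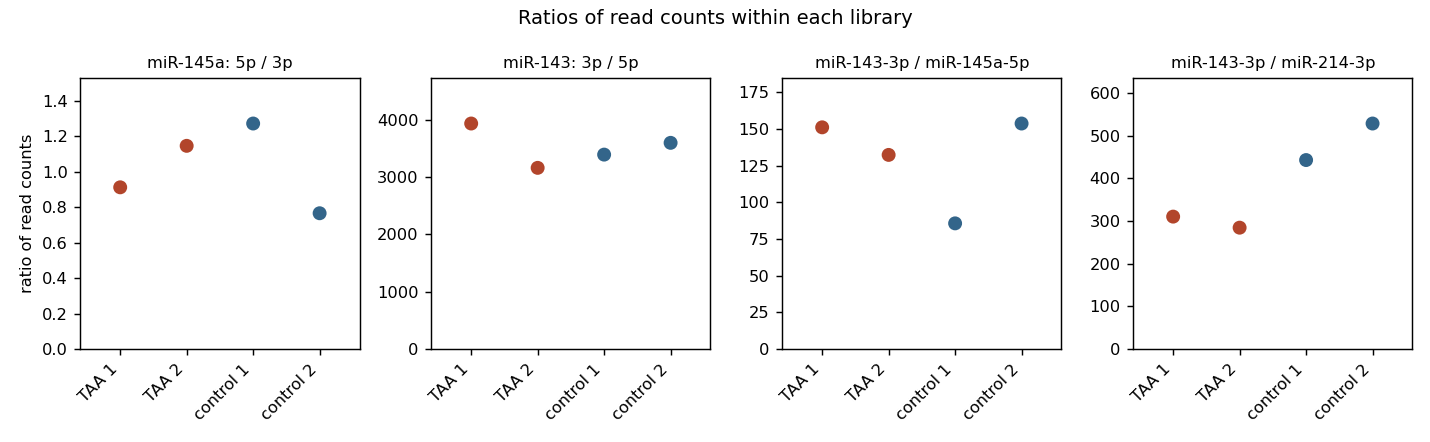
Ratios of read counts in each library, TAA in red and control in blue, on linear axes from 0. Control 1 has the lowest ratio of miR-143-3p to miR-145a-5p, 85.7. The ratio of miR-143-3p to miR-214-3p, chosen with the values known, is lower in both TAA libraries (310 and 284) than in both controls (443 and 528).

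miRNAs of other liver cell types were set beside the cluster, over lists chosen for the cells a liver sample can hold. In bulk liver, fewer cells of a type and less of the miRNA per cell cannot be told apart. Over all miRNAs tested, 14% were called higher and 2.64% lower. The stellate cell and fibroblast list (miR-199a, miR-199b and miR-214, both arms) marks mesenchymal cells of fibrotic liver. It had 1 of 6 members higher, near the share over all miRNAs, and 0 lower. Its median log2 fold change was 0.58, against -0.0042 for all miRNAs tested and, with TMM factors, -0.41 to -0.04 for the members of the miR-143 and miR-145 cluster. miR-214-3p was the member that rose, at 96.0 and 77.1 CPM in TAA-treated liver against 59.3 and 50.9 CPM in the controls (log2 fold change 0.65, SE 0.17, edgeR adjusted p = 0.0354). It did not pass with upper-quartile factors (log2 fold change 0.48, edgeR adjusted p = 0.0826). Nor did it with a minimum of 10 CPM (0.72, edgeR adjusted p = 0.0583), where 1 other list member passed. The number of the 6 that passed as higher was 0 with those factors and without TAA 1, TAA 2 or control 2. It was 2 with DESeq2 and with limma-voom, 4 without control 1, with no filter and with the replicate block, and 5 with library size alone. miR-199a-3p, the most abundant member, measured 947 and 714 CPM in TAA-treated liver against 641 and 523 CPM in the controls (log2 fold change 0.51, SE 0.17, edgeR adjusted p = 0.0842). It passed with the replicate block (adjusted p = 0.0352), library size alone (0.0149), no filter (0.0055) and without control 1 (0.0063). It shares its sequence with miR-199b-3p, so the split of reads between them is uncertain.

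Within a library, miR-143-3p was also set directly against these miRNAs, which needs no scaling; the other members were not. There were 310 and 284 reads of miR-143-3p for each read of miR-214-3p in TAA-treated liver, against 443 and 528 in the controls. For miR-199a-3p the ratio was 31.5 and 30.7 in TAA-treated liver against 41.0 and 51.5 in the controls. The groups did not overlap in either ratio. How often such ratios separate over other miRNAs was not counted, but the levels of single miRNAs separated in 55.3% of 644. The mean log2 ratio differed by -0.70 (TAA minus control) for miR-214-3p and by -0.56 for miR-199a-3p. An exact two-sided permutation test gave p = 0.33 for each, the smallest that 2 libraries against 2 allow. Set against miR-126a-5p, an endothelial miRNA of like abundance, the ratio was 1.31 and 1.14 in TAA-treated liver and 1.21 and 1.06 in the controls, which overlapped (exact permutation p = 0.667). These 3 ratios were not in the planned tests and were chosen with the values known.

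Neither endothelial miRNA passed the test. For miR-126a-5p, the more abundant, edgeR gave a log2 fold change of -0.17 (SE 0.12, adjusted p = 0.441). miRNAs of striated muscle, which shares serum response factor with smooth muscle, were sparse. Of the 10 listed 2 could be tested and neither passed, while without control 1 miR-133a-3p passed as lower (log2 fold change -0.81, edgeR adjusted p = 0.0286). The most abundant, miR-133a-3p, had 117 and 148 counts in TAA-treated liver against 149 and 202 in the controls, and miR-206-3p, which defines skeletal muscle, had 1 count in all. Of the 5 bile duct epithelial miRNAs 0 were higher and 2 lower, where 2.64% of all miRNAs tested were lower. The 2 were miR-141-3p (-0.72 on the log2 scale, SE 0.17, edgeR adjusted p = 0.0232) and miR-200c-3p (-0.85, SE 0.22, edgeR adjusted p = 0.0335). The most abundant member, miR-200b-3p, did not pass (-0.16, SE 0.13). Neither did miR-200a-3p (-0.07, SE 0.15) or miR-429-3p (-0.02, SE 0.15). Whether the 2 that passed vary independently was not tested. When either TAA library was left out 0 of the 5 passed, and when either control was left out 1 did; with a minimum of 10 CPM 0 of 4 passed. Of the 6 leukocyte miRNAs 3 rose and 0 fell, where 14% of all miRNAs tested rose. The 3 were miR-150-5p, miR-155-5p and miR-342-3p. miR-150-5p, of lymphocytes, measured 188 and 172 CPM in TAA-treated liver against 67.4 and 74.6 CPM in the controls (edgeR adjusted p = 0.000241). The most abundant member, miR-142a-5p, did not pass, at 1488 and 1290 CPM in TAA-treated liver against 706 and 1164 CPM in the controls. The list had 6 members higher when control 2 was left out, and 1 when either TAA library was. It had 5 with library size alone and with no filter, and 2 with upper-quartile factors.

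Each of the 5 erythroid miRNAs passed edgeR's test as higher (median log2 fold change 2.23), where 14% of all miRNAs tested did. The 5 are not independent. miR-144-3p and miR-144-5p are arms of 1 hairpin that neighbours miR-451a, and miR-486a-5p and miR-486b-5p moved together (2.23 and 2.19). The call also depended on the test and on 1 library. With all libraries 0 of the 5 passed DESeq2, 2 passed limma-voom and, with a minimum of 10 CPM, 0 of the 4 then tested passed edgeR. Without TAA 2 the median was 1.03 and 0 passed. The most abundant, miR-486a-5p, measured 418 and 1478 CPM in TAA-treated liver against 245 and 158 CPM in the controls. None of the 5 hepatocyte miRNAs passed, with a median of -0.19. The smallest p was that of miR-122-3p, whose edgeR adjusted p was 0.107 at a log2 fold change of -0.32 (SE 0.11). Without control 1, and also with upper-quartile factors, 1 hepatocyte member passed as lower. The difference of the miR-143 and miR-145 cluster from any of these lists was not tested.

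**Figure D5:**
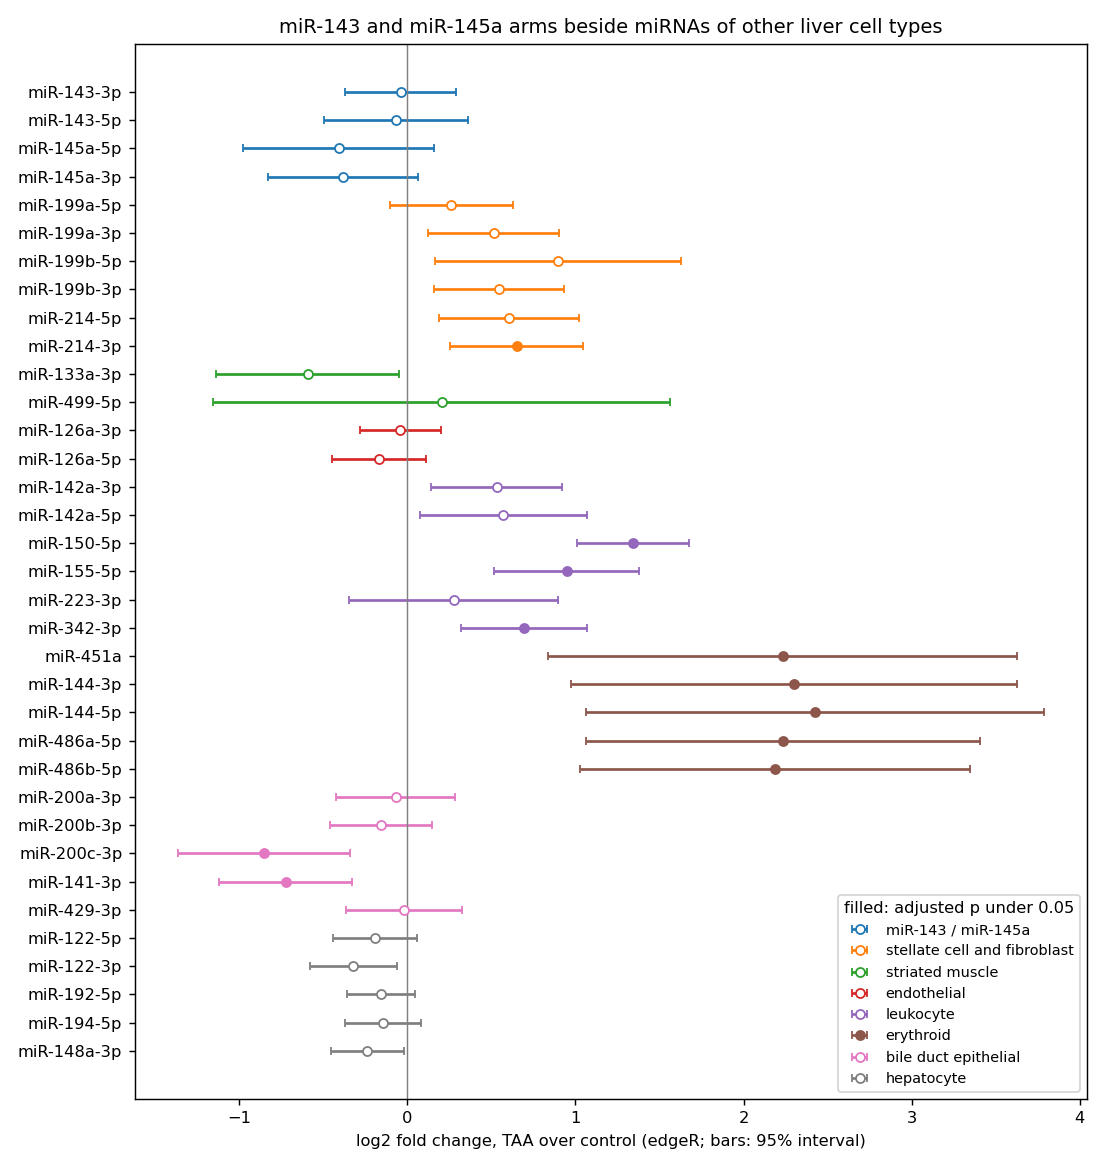
Log2 fold change, TAA over control, with its 95% interval for the 4 cluster members (top) and for the tested members of 7 lists of liver cell types; filled points had an adjusted p under 0.05. All 4 cluster intervals include 0, as does that of miR-199a-5p among the stellate cell and fibroblast miRNAs, of which miR-214-3p is filled.

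The miRNAs most like miR-143-3p across the 4 libraries, by the root mean square difference of centred log2 CPM among 272 others with a mean of at least 10 CPM, were miR-195a-3p (0.033), miR-100-5p (0.035) and miR-24-3p (0.066), where the median over all was 0.21. miR-100-5p measured 5427 and 4039 CPM in TAA-treated liver and 5101 and 5096 CPM in the controls, the same split between the TAA libraries with the controls between them. The arms of miR-145a were farther away than these, miR-145a-3p at 0.19, under that median, and miR-145a-5p at 0.34, above it. miR-143-5p, with a mean of 7.44 CPM, was under the limit of 10 CPM and was not compared. For miR-145a-5p the nearest were miR-187-3p (0.12), miR-19b-3p (0.13) and miR-378a-5p (0.18), with a median over all of 0.37. miR-19b-3p, of the miR-17-92 cluster, measured 168 and 180 CPM in TAA-treated liver against 321 and 165 CPM in the controls, high in control 1 alone like miR-145a-5p. With 4 libraries, such likeness describes these samples only.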

How the data were processed

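Each library has 1 deposited file of raw counts, with a row for every mature miRNA and 5 summary rows. The submitters' processing notes name Bowtie, HTSeq and the build mm10. The sources used here give no versions, adapter trimming, annotation release or rule for reads with several matches. Per the labels' protocols, RNA came from an miRNeasy kit and libraries from a TruSeq small RNA kit. Summary rows, 31.3% to 34.6% of reads, entered neither library sizes nor tests. Chi-square per degree of freedom between replicate libraries was 336 for TAA and 243 for control, so none is a copy of another; this does not show that they are separate animals.

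Differences in counts were tested with edgeR 4.0.16 under R 4.3.3 (filterByExpr, TMM factors, glmQLFit and glmQLFTest), adjusted by Benjamini-Hochberg over the 644 miRNAs kept. The SE is the log2 fold change divided by the square root of F, and intervals are 95%. Ratios of arms and of neighbouring hairpins were log2 ratios of counts, each plus 0.5, where both averaged 20 counts or more, tested with limma 3.58.1. DESeq2 1.42.0, limma-voom, other normalizations and filters, a replicate block and leaving out each library were the alternatives. Positions come from GENCODE and RefSeq tables of GRCm38. Named besides the members were the miRNA with the smallest p and the most abundant one of each list. Members counted in a list of 5 or fewer calls and the 3 miRNAs nearest to each guide strand were also named. miR-206-3p was named for being the defining marker of skeletal muscle. miR-122-5p, miR-200a-3p and miR-429-3p were named to complete what is said of their lists. The members and lists were chosen with earlier results of these data known.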

Additional observations from a re-analysis of the deposited data

How the results depend on the processing

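Of 75 values of the members recomputed under other settings, 2 passed the threshold, both without control 2 and both described above for miR-145a-5p. miR-145a-3p kept its sign in 13 of 13 settings, between -0.70 and -0.12. The sign turned for miR-143-3p with library size alone (0.079) and with a minimum of 10 CPM (0.032), and for miR-143-5p with library size alone (0.049). Leaving out each library in turn gave log2 fold changes of -0.28 to 0.17 for miR-143-3p, -0.14 to -0.0039 for miR-143-5p and -0.77 to 0.031 for miR-145a-5p. It gave -0.17 to 0.14 for the miR-143 arm ratio, -0.32 to 0.42 for the miR-145a arm ratio and -0.12 to 0.72 for miR-143-3p over miR-145a-5p.

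Over all miRNAs, leaving out a library gave 47 to 98 higher and 2 to 33 lower, and among the list members 1 to 12 higher and 0 to 3 lower, against 9 and 2. With upper-quartile factors 83 were higher and 32 lower in TAA-treated liver. A minimum of 10 CPM gave 23 higher and 4 lower, and 3 and 0 of the list members; no filter gave 32 lower and 14 list members higher; library size alone gave 15 list members higher. Changed arm ratios numbered 3 with 5 added to each count, 1 with a minimum of 100 counts and 0 to 11 without a library. Changed neighbour ratios numbered 4 with 5 added and 0 to 18 without a library. The causes of these differences were not tested, and some of the settings also used fewer miRNAs or libraries.

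The labels' replicate numbers are not stated to pair libraries, and the deviations of same-numbered libraries correlated at -0.13. A replicate block gave log2 fold changes of -0.06 for miR-143-3p, -0.07 for miR-143-5p, -0.36 for miR-145a-5p and -0.41 for miR-145a-3p and changed no call of a member. It gave 92 higher and 18 lower over all miRNAs. The crossed pairing, chosen after seeing the data, gave 95 and 20. With 2 libraries a group, low counts limit miR-145b, whose counting error is 25.8% to 33.3% of a value. The spread between libraries limits miR-143-3p and the miR-145a arms. For miR-143-5p, counting error (5.30% to 5.59%) and the spread that edgeR estimates were not told apart.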
